A study of Mus musculus with 203 samples.

Results

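House dust mite (HDM) extract was given to mice for weeks through the nose, and the lung parenchyma, the gas-exchanging tissue left after the airways are dissected away, was compared by RNA-seq with that of mice given phosphate buffered saline (PBS). The comparison at 11 weeks without cigarette smoke and without dexamethasone is described here. Its members are the 10 parenchyma libraries labelled HDM with normal air and the 10 labelled PBS with normal air, together 20 libraries or 9.85% of those in the series. All groups used here were female Balb/C mice with a stated age of 18 to 20 weeks, and no genetic modification is named in the labels. The labels of every group give both HDM schedules, 3 times per week from week 4 to week 11 and 5 days per week for 3 weeks. The former was taken as that of the 11-week groups and the latter as that of the 3-week groups. Whether the 11-week mice had also received the 3-week course is not stated plainly, and the dose of the longer course is not given in the sources used here. 3 further pairs of groups served only to test where the response differed: airway at 11 weeks in air (10 HDM and 10 PBS libraries), parenchyma at 3 weeks (10 and 12) and parenchyma of mice that also breathed cigarette smoke from week 4 to week 11 (10 and 10).

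HDM extract holds proteases and allergens of the mite and is widely used to model allergic asthma. In the acute response, epithelial alarmins act on type 2 lymphocytes, which make the cytokines interleukin (IL)-4, IL-5 and IL-13. IL-5 drives eosinophils, while IL-4 and IL-13 drive mucus production and alternatively activated macrophages through the transcription factor STAT6. With repeated allergen, T follicular helper cells help B cells to switch antibody class, and lymphoid follicles with germinal centres can form in the lung. The parenchyma itself consists of type I alveolar cells, which line the gas-exchange surface, type II alveolar cells, which make surfactant, a dense capillary endothelium, alveolar fibroblasts and resident macrophages.

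The labels do not name the animal behind each library, so p-values measure the spread between libraries. Total counts ranged from 22011675 to 33472028 per library. Markers of the tissue were present in all 20 libraries, with summed levels of 23246 to 35258 CPM (median 26138) in PBS and 21806 to 31578 CPM (median 27203) in HDM libraries for 11 type II alveolar markers. Levels are given throughout as CPM, the counts of a gene in each 1e6 counts of the library, scaled with TMM (trimmed mean of M-values) factors. 3 libraries stood apart in single features and were left out together in a further fit. HDM replicate 5, which held the most of the airway genes Scgb3a1 (2987 CPM) and Foxj1 (161.1 CPM), was not among them. PBS replicate 7 held 447 CPM of the antibody gene Ighg1, where the other PBS libraries held 0.541 to 33.7, and 2.49 CPM of Il17a. HDM replicate 4 held skeletal muscle RNA (843 CPM of Acta1, against at most 0.111 in the other 19 libraries), and HDM replicates 4 and 6 held 9.98 and 11 CPM of the fat cell gene Cfd, against at most 2.86 elsewhere. Clock genes fell into steps along the order of the library codes: Arntl was at 2.37 to 2.84 CPM in PBS replicates 7 to 10, at 13.8 to 15.3 in PBS replicates 1 to 3 and at 30.3 to 35.7 in PBS replicates 4 to 6, and the labels give no time of sampling. Mitochondrial genes took 3.51% to 4.99% of the counts in PBS libraries and 2.67% to 3.64% in HDM libraries.

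A broad shift separated the groups. Of 16337 genes tested with limma-voom, 5292 were higher (32.4% of those tested) and 5157 lower (31.6%) in HDM parenchyma at the 0.05 level of adjusted p. A change of 2-fold or more was also reached by 1917 higher genes (11.7%) and 1045 lower genes (6.4%). The groups did not overlap for 2241 genes that were higher in HDM (13.7%) and 1737 that were lower (10.6%). These shares are the background against which every count of list members below should be read. The median log2FC over all genes was 0.01. Without the 3 libraries that stood apart (PBS replicate 7 and HDM replicates 4 and 6), 1680 genes were higher and 936 lower by at least 2-fold, and of the 2962 genes called with all libraries, 2750 were still tested and 2741 of them passed. Since whole tissue was sequenced, more or fewer cells of a type and more or less RNA per cell cannot be told apart in any result that follows.

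**Figure D1:**
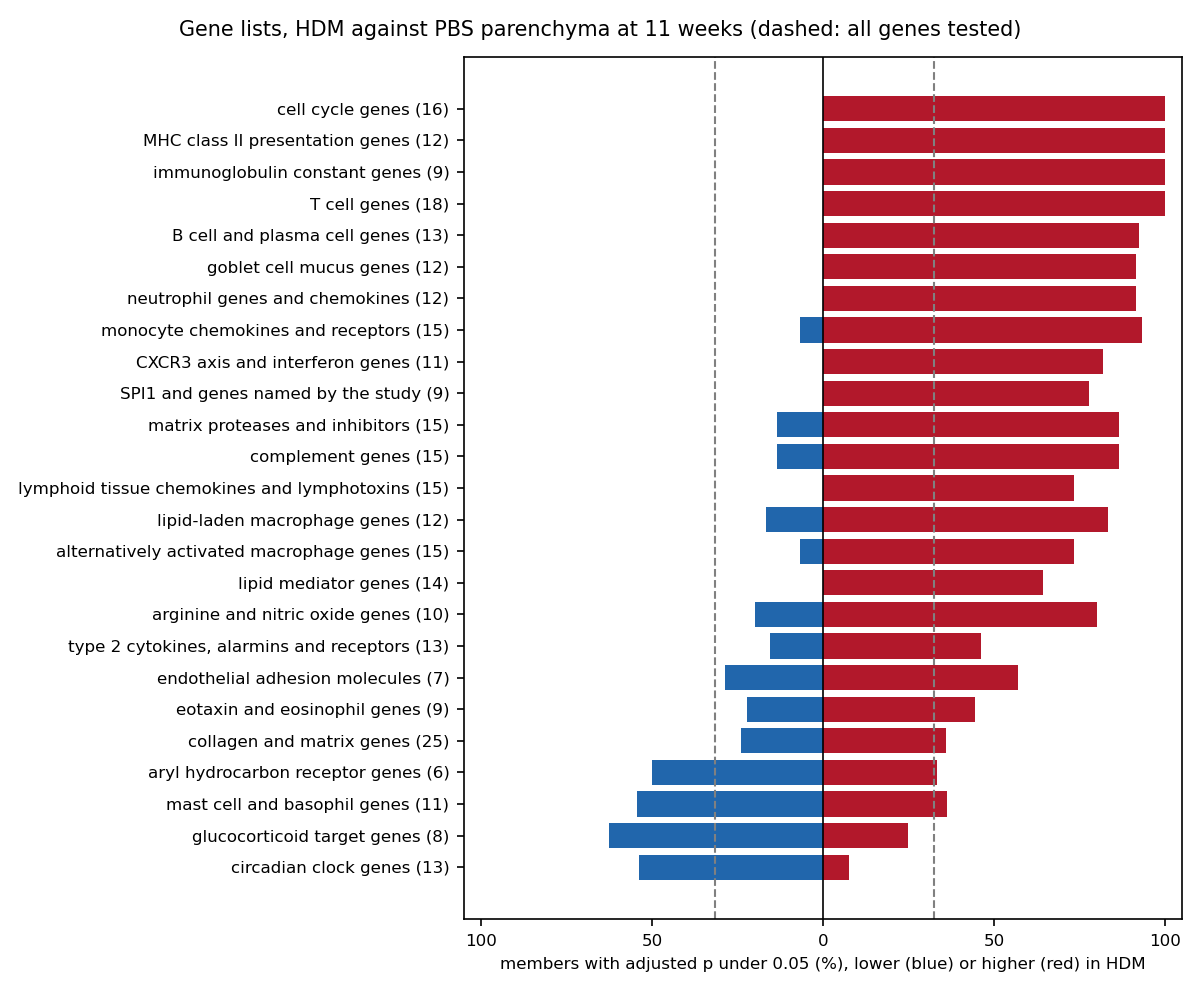
For each of the 25 function lists (members tested in parentheses), bars show the percent of members with an adjusted p-value under 0.05, higher in HDM to the right (red) and lower to the left (blue), and the dashed lines mark the same shares over all genes tested, 32.4% and 31.6%. All tested members of 4 lists were higher in HDM: cell cycle, MHC class II presentation, immunoglobulin constant and T cell genes.

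Of the 25 function lists, antibody genes had the highest median change. All 9 immunoglobulin constant genes tested were higher, with a median log2FC of 6.41, and their summed level went from a median of 223 CPM (138.03 to 1014) in PBS to 20062 CPM (9051 to 42804) in HDM. Ighg1, the constant region of IgG1 (chromosome 12 of mm10 from 113325240 to 113330523, minus strand), had 0.541 to 447 CPM (median 7.28) in PBS and 4044 to 20194 CPM (median 9598) in HDM libraries. Every HDM library lay above every PBS library, also above PBS replicate 7, and the log2FC was 9.94 (standard error 0.79, adjusted p = 4.8e-10). Without PBS replicate 7 it was 10.52. Igha, the constant region of the mucosal class IgA, went from a median of 74.3 CPM (24.6 to 112.98) in PBS to 2394 CPM (802 to 5064) in HDM (log2FC 5.31). Ighm, the unswitched class, went from a median of 69.3 CPM (45.1 to 119.8) in PBS to 1326 CPM (1036 to 2083) in HDM (log2FC 4.28, adjusted p = 1.1e-13), again without overlap. Ighg2b (log2FC 7.06) and the light chain gene Igkc (log2FC 6.41) were separated in the same way. Ighg3 (log2FC 6.65, standard error 1.71) was less even, since its HDM libraries spread from 0.663 to 93.2 CPM and 9 of the 10 exceeded the highest PBS library. Reads of closely related IgG constant genes can be shared out between them by the quantification, and the reference genome is of another strain than Balb/C, so the split between IgG subclasses is less certain than their sum.

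B cell and plasma cell genes were higher in nearly all members. Of 13 B cell and plasma cell genes, 12 were higher. Jchain, which links antibody units into polymers, had 23.6 to 255 CPM (median 68.7) in PBS and 2238 to 11496 CPM (median 5292) in HDM libraries (log2FC 6.45, standard error 0.42, adjusted p = 2.4e-11). Mzb1, an endoplasmic reticulum cofactor of antibody secretion, rose by a log2FC of 4.805. The B cell surface gene Ms4a1 (CD20) rose by 1.72. Xbp1, the secretory regulator that many other cells use too, rose by 0.99. The member of this list that did not pass was Prdm1.

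Genes of organised lymphoid tissue were higher in part. Of 15 tested, 11 passed, none was lower, and the median log2FC was 1.87. Cxcl13, the follicular chemokine that draws B cells, went from a median of 6.26 CPM (4.22 to 9.07) in PBS to 91.6 CPM (39.4 to 154.9) in HDM (log2FC 3.84), and Ccl19, a T zone chemokine, from a median of 0.374 CPM (0.182 to 0.771) in PBS to 20.1 CPM (10.1 to 34.5) in HDM (log2FC 5.59). Both were separated between all libraries. Glycam1, made by high endothelial venules through which lymphocytes enter lymph nodes, had 0.0313 to 0.408 CPM (median 0.106) in PBS and 1.11 to 5.31 CPM (median 2.52) in HDM libraries, at low levels, and did not pass with all 11-week groups in one fit (adjusted p = 0.291). The lymphotoxin genes Lta (log2FC 2.67) and Ltb (log2FC 1.57) and Ccl20 (log2FC 3.30) were higher in every HDM library. Ccl21a and its receptor Ccr7, which guide T cells and dendritic cells to lymph nodes, had log2FC values of 0.11 and 0.20 and did not pass (adjusted p = 0.54 and 0.17). Ccl21a shares nearly all of its sequence with other Ccl21 genes.

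All 18 T cell genes tested were higher, with a median log2FC of 1.87. Il21, the cytokine by which T follicular helper cells act on B cells, had 0 to 0.205 CPM (median 0.0348) in PBS libraries, 4 of which held no count, and 1.68 to 4.03 CPM (median 2.85) in HDM libraries (log2FC 5.58, standard error 0.43, adjusted p = 3e-10). Pdcd1, the checkpoint receptor PD-1 that marks follicular helper and chronically stimulated T cells, went from a median of 0.525 CPM (0.108 to 1.21) in PBS to 13.1 CPM (5.52 to 23.4) in HDM (log2FC 4.66). Icos (log2FC 2.59), Ctla4 (log2FC 3.37) and Foxp3 (log2FC 2.09), genes of activated and regulatory T cells, were also separated between all libraries. Cd4 rose by a log2FC of 2.15 and Cd8a by 1.22. Ifng, the type 1 cytokine, rose by 2.13, and 8 of 10 HDM libraries exceeded the highest PBS library.

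**Figure D2:**
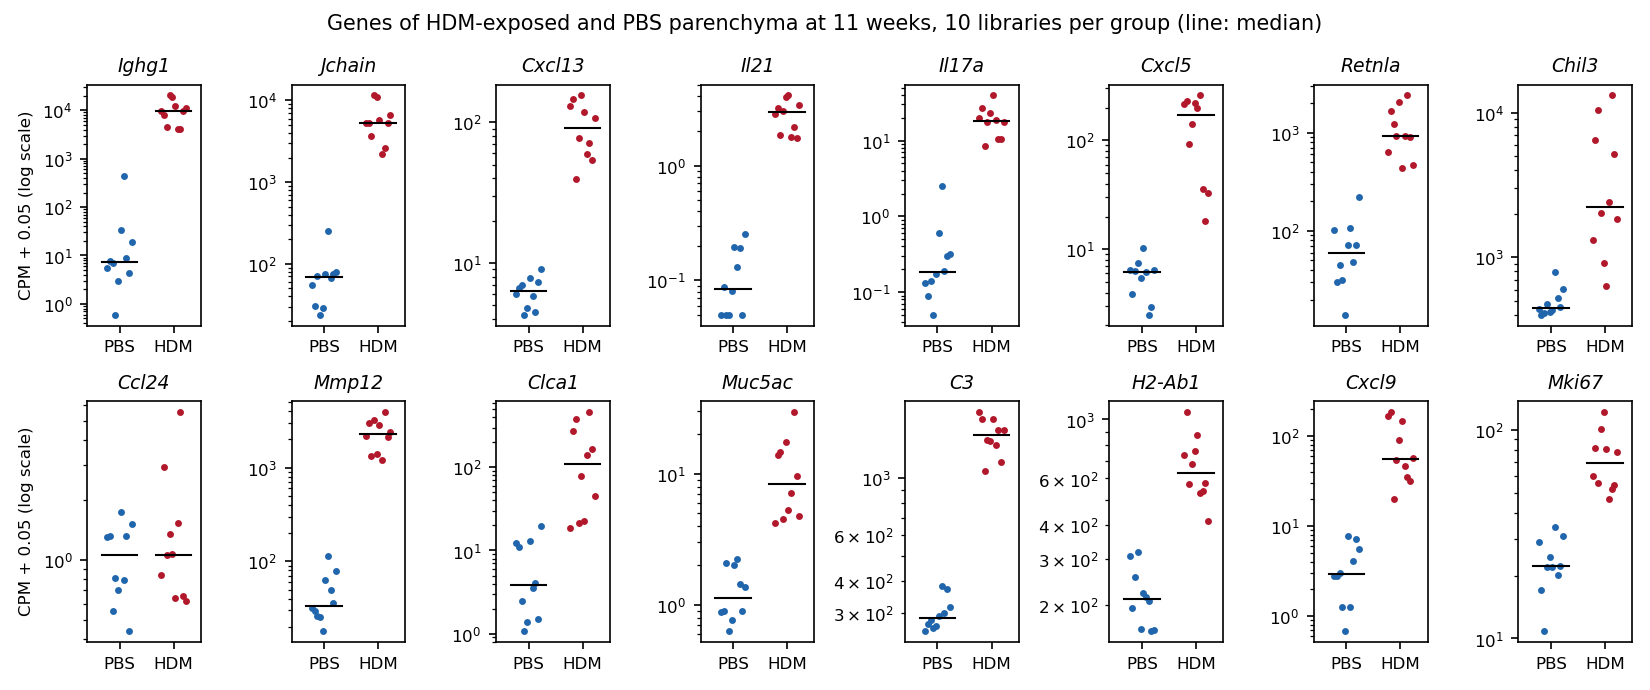
Each point is a library and each panel a gene, with CPM plus 0.05 on a log scale, PBS in blue, HDM in red and the median as a line. The groups do not overlap for Ighg1, Jchain, Cxcl13, Il21, Il17a, Cxcl5, Retnla, Mmp12, Muc5ac, C3, H2-Ab1, Cxcl9 and Mki67, while 9 of 10 HDM libraries lie above the PBS libraries for Chil3 and Clca1 and 2 of 10 do for the eosinophil chemokine Ccl24.

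The IL-17 and neutrophil genes formed the next group. Il17a (chromosome 1 of mm10 from 20730905 to 20734496, plus strand), the cytokine of Th17 and gamma delta T cells, had 0 to 2.49 CPM (median 0.133) in PBS and 8.53 to 39.2 CPM (median 18) in HDM libraries, with a log2FC of 6.63 (standard error 0.74, adjusted p = 8.2e-08). The highest PBS library was replicate 7, and without it the log2FC was 7.04. Of 12 neutrophil genes and chemokines tested, Il17a among them, 11 were higher and none lower. Cxcl5, an epithelial neutrophil attractant that IL-17A is known to induce, went from a median of 6.18 CPM (2.45 to 10.3) in PBS to 170.7 CPM (18 to 259) in HDM (log2FC 4.31), without overlap but with a wide range among HDM libraries. Lcn2, an iron-binding antibacterial protein of neutrophils and epithelium, went from a median of 97.7 CPM (41.2 to 270.2) in PBS to 1889 CPM (1113 to 3031) in HDM (log2FC 4.07). Cxcl1 rose by 2.82 and S100a8, a calprotectin subunit of neutrophil cytoplasm, by 1.77, where 7 of 10 HDM libraries exceeded the highest PBS library.

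Type 2 genes were mixed. Of 13 cytokines, alarmins and receptors tested, 6 were higher, 2 lower and 5 did not pass, against background shares of 32.4% and 31.6%. Il4 had 0.164 to 0.544 CPM (median 0.388) in PBS and 0.141 to 0.958 CPM (median 0.486) in HDM libraries, and did not pass (log2FC 0.36, adjusted p = 0.3). Il5, Il13, Il9 and Il25 were too low to be tested. Per library, Il13 had on average 0.8 counts in PBS and 10.7 in HDM, and Il5 had 4.6 in each. The alarmins moved apart: Il33 rose from a median of 59.3 CPM (44.4 to 81.9) in PBS to 171.02 CPM (74 to 253) in HDM (log2FC 1.42), while Tslp fell from a median of 7.66 CPM (5.2 to 9.14) in PBS to 2.53 CPM (1.54 to 4.52) in HDM (log2FC -1.42) with no overlap. Il13ra2, a decoy receptor that IL-13 induces, rose by a log2FC of 3.83 at low levels, with at most 0.229 CPM in PBS and at least 0.246 CPM in HDM libraries.

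Alternatively activated macrophage genes rose with wide spread between libraries. Of 15 tested, 11 were higher, 1 lower and 3 did not pass, with a median log2FC of 2.53. The first 250 bases before the start were searched for the core of the STAT6 motif (TTC, then any 4 bases, then GAA, which reads the same on both strands), because STAT6 is the textbook regulator of these genes. Over RefSeq promoters of 27025 mouse genes, 5.86% held it. Of the 15 members of this list and of the eotaxin and eosinophil list that rose, 10 had a promoter in the table and 3 held a match. These 3 promoters are printed 5′ to 3′ on the gene's strand from build GRCm38.p6, with the match in capitals. A match is a run of letters and not a shown binding site.
Retnla, chr16:48842359-48842608, plus strand: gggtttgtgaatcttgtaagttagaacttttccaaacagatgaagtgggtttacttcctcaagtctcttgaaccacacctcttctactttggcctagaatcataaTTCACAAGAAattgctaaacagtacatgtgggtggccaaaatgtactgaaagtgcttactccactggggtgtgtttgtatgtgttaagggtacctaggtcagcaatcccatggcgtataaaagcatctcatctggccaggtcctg
Ccl17, chr8:94810203-94810452, plus strand: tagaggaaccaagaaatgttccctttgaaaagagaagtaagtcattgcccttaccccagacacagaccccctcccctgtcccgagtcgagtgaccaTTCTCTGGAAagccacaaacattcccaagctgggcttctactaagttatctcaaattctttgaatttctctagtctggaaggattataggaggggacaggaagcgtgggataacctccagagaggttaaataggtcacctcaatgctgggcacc
Pdcd1lg2, chr19:29410669-29410918, plus strand: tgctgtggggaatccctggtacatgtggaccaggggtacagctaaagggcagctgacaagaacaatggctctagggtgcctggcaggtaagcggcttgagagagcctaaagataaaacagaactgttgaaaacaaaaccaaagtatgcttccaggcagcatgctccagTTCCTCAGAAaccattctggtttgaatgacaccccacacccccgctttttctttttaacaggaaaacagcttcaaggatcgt

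Retnla, a secreted marker of alternatively activated macrophages that airway epithelium also makes, went from a median of 59.5 CPM (13.9 to 219.7) in PBS to 924 CPM (441 to 2390.3) in HDM (log2FC 4.14, standard error 0.44, adjusted p = 3.3e-08) without overlap. Pdcd1lg2, the PD-1 ligand PD-L2, rose from a median of 0.704 CPM (0.456 to 1.19) in PBS to 6.37 CPM (4.77 to 16) in HDM (log2FC 3.25), also without overlap. Ccl17, a chemokine for CCR4-bearing T cells, went from a median of 4.87 CPM (1.6 to 9.55) in PBS to 14.9 CPM (5.19 to 37.2) in HDM (log2FC 1.89), and 7 of 10 HDM libraries exceeded the highest PBS library. Some members rose whose promoter held no match, among them Ccl22, Chil3 and Mrc1. Arg1 and Msr1 rose too but had no promoter to search. Ccl22, which shares its receptor with Ccl17, rose by 2.94 without overlap. Chil3, the chitinase-like protein Ym1, spread widely, with 635 to 13121 CPM (median 2227) in HDM against 401 to 799 CPM (median 448) in PBS libraries (log2FC 2.53), and Chil4, which is nearly identical in sequence and may share its reads, reached at most 12.2 CPM. Arg1, which turns arginine away from nitric oxide, had 1.19 to 6.44 CPM (median 1.99) in PBS and 4.29 to 149.7 CPM (median 25.5) in HDM libraries (log2FC 3.62, standard error 0.73). The scavenger receptor Msr1 was more even, from a median of 10.5 CPM (7.9 to 20.4) in PBS to 142.2 CPM (76.1 to 229.9) in HDM (log2FC 3.63). Mrc1, the mannose receptor, rose by 0.63, and Cd163, the haptoglobin-haemoglobin receptor of tissue macrophages, fell by 1.56 on the log2 scale.

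Eosinophil genes were low. Of 9 tested, 4 were higher, 2 lower and 3 did not pass. Ccl11, eotaxin-1, rose from a median of 1.29 CPM (0.783 to 2.86) in PBS to 13.6 CPM (2.8 to 38.1) in HDM (log2FC 2.94, adjusted p = 0.00034), while Ccl24, eotaxin-2, had 0.385 to 1.68 CPM (median 1.01) in PBS and 0.567 to 5.49 CPM (median 1.01) in HDM libraries and did not pass (log2FC 0.37, adjusted p = 0.41). Prg2, the major basic protein of eosinophil granules, rose from a median of 0.155 CPM (0.0837 to 0.818) in PBS to 2.2 CPM (1.31 to 4.9) in HDM (log2FC 3.37), with at least 1.31 CPM in every HDM library. Epx, the eosinophil peroxidase, had 39 counts over the 10 HDM libraries and 3 over the 10 PBS libraries and was not tested. Siglecf, which alveolar macrophages also carry, and Ear2 had log2FC values of 0.36 and 0.49, and neither passed with all 11-week groups in one fit (adjusted p = 0.0832 and 0.0756). The call of Ear1 (log2FC -0.43) was lost with edgeR, in fits shared by all 11-week or all 8 parenchyma groups, without the 3 libraries that stood apart, with the clock gene level as a covariate and without HDM replicate 6 (adjusted p = 0.0509 to 0.163). The Ear genes are close copies of one another.

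Mast cell genes divided by protease type. Of 11 mast cell and basophil genes tested, 4 were higher and 6 lower. Mcpt1 and Mcpt2, the proteases of mucosal mast cells, rose from 0.0722 to 0.75 CPM (median 0.15) and 0 to 0.546 CPM (median 0.054) in PBS to 1.58 to 8 CPM (median 3.04) and 1.27 to 4.57 CPM (median 2.46) in HDM libraries (log2FC 4.07 and 5.09). Mcpt4 and Cma1, proteases of connective tissue mast cells, had log2FC values of -1.63 and -0.79 and both fell, although Cma1 did not pass with all 11-week groups in one fit (adjusted p = 0.0724). Cpa3, common to both kinds, did not pass (log2FC 0.22, adjusted p = 0.43). Kit and Gata2 also fell (log2FC -1.12 and -1.90, both without overlap), and both are known in endothelium too. Endothelial markers fell in the same libraries, and which cells account for the fall of Kit and Gata2 was not tested.

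Macrophage genes of lipid handling and matrix digestion changed without overlap between the groups in most cases. Of 12 lipid-laden macrophage genes, 10 were higher and 2 lower, and for those 10 the groups did not overlap. Mmp12, the macrophage elastase (chromosome 9 of mm10 from 7344381 to 7369499, plus strand), had 17.8 to 112.6 CPM (median 33.6) in PBS and 1205 to 3929 CPM (median 2277) in HDM libraries, a log2FC of 5.78 (standard error 0.33, adjusted p = 3.4e-12). Trem2, a lipid-sensing receptor, rose from a median of 5.07 CPM (3.9 to 17.3) in PBS to 80.6 CPM (49.6 to 113.8) in HDM (log2FC 3.78), and Gpnmb and Spp1 by 3.36 and 2.96. Cd36, the fatty acid translocase that lung capillaries and macrophages both carry, fell (log2FC -0.94). Among 15 matrix proteases and inhibitors, 13 were higher and 2 lower. Ctsk, cathepsin K, rose by 3.11 and the inhibitor Timp1 by 3.88, whereas the inhibitor Timp3, bound to matrix, fell (log2FC -0.96). Of the 9 genes made up of SPI1, the macrophage and B cell transcription factor also called PU.1, and genes the study names beside it, 7 were higher, and for all 7 the groups did not overlap. The study named these genes from its own analysis of this series, so the list is not independent evidence of its direction. Spi1 had 20.5 to 34.5 CPM (median 29.1) in PBS and 52.2 to 112.8 CPM (median 73.9) in HDM libraries (log2FC 1.47, standard error 0.12, adjusted p = 5.9e-10). Clec7a, the beta-glucan receptor dectin-1, rose by 2.81, Itgax (CD11c) by 2.73, the IL-1 receptor antagonist Il1rn by 3.29, the platelet-activating factor receptor Ptafr by 3.31 and Tfec by 1.23, whereas Hlx and Mtf1 did not pass (adjusted p = 0.12 and 0.82).

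Monocyte chemokines, complement and antigen presentation were also higher in nearly all members. Of 15 monocyte chemokines and receptors, 14 were higher, all without overlap. Ccl8 rose from a median of 3.14 CPM (0.866 to 14.1) in PBS to 132.2 CPM (89.3 to 304) in HDM (log2FC 5.42) and Ccl9 by 3.85. The member that fell was Cx3cl1, fractalkine, a membrane chemokine of endothelium and epithelium (log2FC -1.03). Of 15 complement genes, 13 were higher and 2 lower. C3, the central component, went from a median of 287 CPM (254 to 383) in PBS to 1468 CPM (1060.4 to 1804) in HDM (log2FC 2.28, standard error 0.10, adjusted p = 1.6e-13), Cfb of the alternative pathway rose by 3.99 and C1qa of the classical pathway by 2.38, and C7 fell (log2FC -1.01). All 12 MHC class II genes were higher, with a median log2FC of 1.64, among them H2-Ab1 (1.599), the invariant chain Cd74 (1.82) and the transactivator Ciita (1.599). Of 11 genes of the CXCR3 axis and of interferon responses, 9 were higher. The chemokine Cxcl9 rose from a median of 2.85 CPM (0.627 to 7.76) in PBS to 55.4 CPM (19.9 to 184.6) in HDM (log2FC 4.54) and Cxcl10 by 3.37. All 16 cell cycle genes were higher, with a median log2FC of 1.37, among them Mki67 (1.64) and Top2a (1.54). Of 10 arginine and nitric oxide genes, 8 were higher and 2 lower. Nos2, the inducible nitric oxide synthase, went from a median of 6.21 CPM (4.39 to 7.13) in PBS to 43.2 CPM (14.2 to 121.9) in HDM (log2FC 2.77), and Nos3, the endothelial form, fell (log2FC -0.97). Of 14 lipid mediator genes, 9 were higher. Hpgds, haematopoietic prostaglandin D synthase, rose by 2.28, and Ptgs2 (COX-2) did not pass (log2FC 0.19, adjusted p = 0.34).

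Mucus genes were higher although the airways had been dissected away. Of 12 goblet cell genes tested, 11 passed and none was lower, with a median log2FC of 2.31. Clca1, a secreted product of goblet cells, had 1.01 to 19.5 CPM (median 3.75) in PBS and 18.7 to 465 CPM (median 109.5) in HDM libraries (log2FC 4.39, standard error 0.87). Muc5ac, the inducible gel-forming mucin, went from a median of 1.09 CPM (0.578 to 2.21) in PBS to 8.38 CPM (4.17 to 29.6) in HDM (log2FC 2.97) and Muc5b from a median of 13.2 CPM (6.84 to 36.5) in PBS to 45.4 CPM (34.8 to 146.4) in HDM (log2FC 1.97). Slc26a4, the anion exchanger pendrin, rose without overlap, from a median of 6.96 CPM (4.89 to 12.9) in PBS to 143.7 CPM (67.5 to 226) in HDM (log2FC 4.12). Markers of small airway epithelium were present in both groups, since the summed level of 6 club cell markers was 19246 to 34800 CPM (median 26892) in PBS and 13498 to 30624 CPM (median 16502) in HDM libraries. Of these 6, 4 fell, among them Scgb1a1, the main club cell secretoglobin (log2FC -0.61), and Cyp2f2 (log2FC -1.27, without overlap), while Scgb3a1, a secretoglobin of the larger airways, rose (log2FC 2.36). HDM replicate 5 held the most Scgb3a1, 2987 CPM, and the most Foxj1 (the ciliated cell regulator), 161.1 CPM. Of 8 ciliated cell markers, 3 were higher, including Foxj1 (log2FC 0.67), 1 was lower (Tppp3, log2FC -1.10) and 4 did not pass. How much small airway tissue each library held was not tested.

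Structural genes of the alveolus fell. All 13 endothelial markers were lower, with a median log2FC of -1.40, and their sum went from a median of 4244 CPM (3711 to 4583) in PBS to 1677 CPM (915 to 2727) in HDM. Pecam1, the junction protein CD31, went from a median of 773 CPM (680.2 to 825) in PBS to 345 CPM (236 to 517) in HDM (log2FC -1.08, standard error 0.12, adjusted p = 8.8e-08). Ednrb, the endothelin B receptor of alveolar capillaries, fell further (log2FC -2.24), as did the angiopoietin receptor Tek (-2.06) and the peptide Apln (-2.07), all without overlap. Car4, carbonic anhydrase of capillary endothelium, passed narrowly, with 34.2 to 226 CPM (median 160.3) in HDM against 146.6 to 220.1 CPM (median 203.2) in PBS libraries (log2FC -0.64, adjusted p = 0.042), and it did not pass when any of 11 single libraries was left out, nor with edgeR or DESeq2 (adjusted p = 0.0991 and 0.106). Of 7 endothelial adhesion molecules, 4 were higher and 2 lower. Ackr1, a chemokine-binding protein of venules, rose from a median of 0.371 CPM (0.272 to 1.43) in PBS to 3.79 CPM (2.25 to 7.14) in HDM (log2FC 3.18), and Icam1 did not pass (log2FC 0.13, adjusted p = 0.26).

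Type I alveolar markers were lower in 9 of 10, with a sum of 10282 to 11844 CPM (median 10762) in PBS and 4091 to 6866 CPM (median 5549) in HDM libraries. Ager, the receptor RAGE, had 2421 to 2936 CPM (median 2678) in PBS and 987 to 1872 CPM (median 1448) in HDM libraries (log2FC -0.91), Hopx fell by 1.34 and Cav1, the caveolin shared with endothelium, by 1.65, each without overlap. The exception, Pdpn, which other stromal cells carry too, was higher (log2FC 0.34, adjusted p = 0.038), with 4 of 10 HDM libraries above the highest PBS library, and it did not pass when any of 11 single libraries was left out. All 9 alveolar fibroblast markers were lower, with a sum of 4352 to 5335 CPM (median 4923) in PBS and 1206 to 2331 CPM (median 1683) in HDM libraries. Inmt, a methyltransferase abundant in these cells, went from a median of 2256 CPM (1761 to 2500.3) in PBS to 574 CPM (347 to 816) in HDM (log2FC -2.02), and the transcription factor Tcf21 and the integrin Itga8 fell by 1.92 and 1.74.

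Type II alveolar markers overlapped in their sum (23246 to 35258 CPM (median 26138) in PBS and 21806 to 31578 CPM (median 27203) in HDM libraries), and 6 of 11 were higher and 2 lower. Within the surfactant proteins the directions divided. Sftpd, the collectin surfactant protein D, went from a median of 869 CPM (692 to 1269) in PBS to 2331 CPM (1909 to 3027) in HDM without overlap (log2FC 1.35), whereas Sftpc, the hydrophobic surfactant protein of type II cells, went from a median of 15298 CPM (11763 to 21367) in PBS to 10071 CPM (7359 to 13277) in HDM (log2FC -0.61), with 8 of 10 HDM libraries below all PBS libraries.

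**Figure D3:**
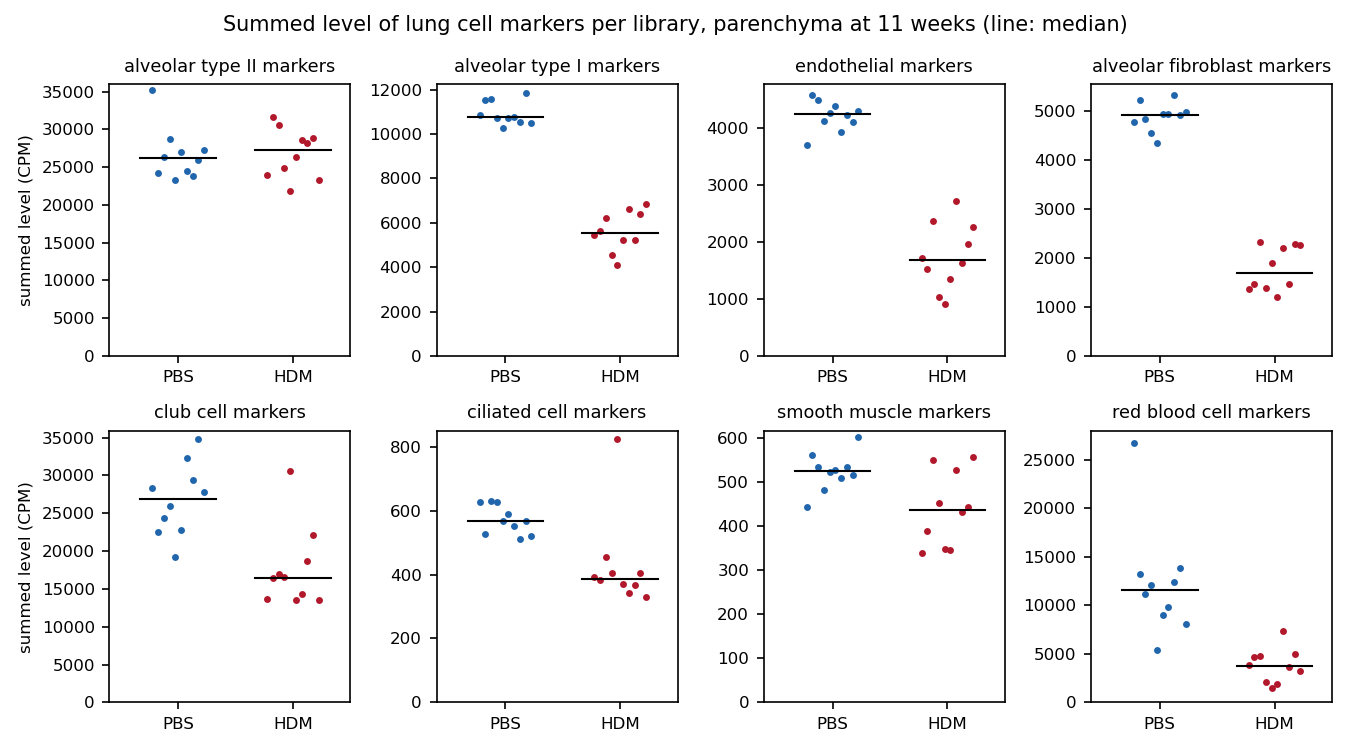
Each point is a library, with the summed level of a marker list in CPM on a linear axis from 0, PBS in blue, HDM in red and the median as a line. Type I, endothelial and alveolar fibroblast sums lie lower in every HDM library than in any PBS library, while type II sums overlap.

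Matrix genes went both ways. Of 25 collagen and matrix genes, 9 were higher, 6 lower and 10 did not pass, with a median log2FC of 0.16, so that the shares lay close to the background in both directions. Col3a1 and Col1a1, fibrillar collagens, rose by 1.39 and 1.16, and Tnc, tenascin C, went from a median of 10.8 CPM (7.07 to 20.1) in PBS to 28.1 CPM (20.7 to 48.7) in HDM (log2FC 1.42), while Postn, periostin, went from a median of 368 CPM (297 to 415) in PBS to 231 CPM (182.7 to 310.5) in HDM and fell (log2FC -0.64). Of 9 smooth muscle markers, 4 were higher and 2 lower, and in each direction 2 did not overlap between the groups. Acta2 was at 21.6 to 40.6 CPM (median 29.5) in PBS and 44.7 to 82 CPM (median 63.8) in HDM libraries (log2FC 1.08). The summed level of the 9 markers overlapped and had the lower median in HDM, with 442.8 to 602.2 CPM (median 523.9) in PBS and 338.65 to 557.4 CPM (median 436.9) in HDM libraries. All 5 red blood cell genes were lower, for example Hbb-bs, a beta globin, with 2791 to 15154 CPM (median 6282) in PBS and 791 to 3968 CPM (median 1893) in HDM libraries (log2FC -1.80). Their summed level was 5367 to 26693 CPM (median 11618) in PBS and 1482 to 7337 CPM (median 3746) in HDM libraries. It was lower in the group in which the endothelial markers were lower, and whether these falls are related was not tested. Of 5 mesothelial markers, 2 were lower, among them Upk3b (log2FC -2.19).

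Markers of tissues that a dissection could carry along were mostly too low to test. Of 9 skeletal muscle markers 1 was tested and did not pass, and 9 of 12 cardiac muscle markers were tested, of which 3 were higher and 3 lower. Of 3 adipose markers tested 1 was higher and 2 were lower, and of 2 basal and squamous epithelial markers 1 was higher and 1 lower. Of 3 Schwann cell markers 1 was higher and 1 lower. The single thymocyte marker and the single cartilage marker tested were higher, and the single thyroid marker tested did not pass. Their part in the results was not tested, and the counts without HDM replicates 4 and 6 are given above.

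Clock genes varied within each group in the steps described above. Of 13 clock genes, 7 were lower, 1 higher and 5 did not pass. Arntl (log2FC 0.86, adjusted p = 0.12) and Dbp (log2FC -0.71, adjusted p = 0.26), which peak at opposite times of day, and Nr1d1 (adjusted p = 0.84), a clock repressor, spread over more than 10-fold among PBS libraries and overlapped with HDM libraries. Dbp passed with edgeR, DESeq2 and the library code as covariate (adjusted p = 0.026 to 0.0391), and Arntl without PBS replicate 4 or 5 (adjusted p = 0.0465 and 0.0438). Cry2, which cycles less, was lower without overlap, with 57.3 to 87 CPM (median 67.4) in PBS and 27 to 46.7 CPM (median 35.6) in HDM libraries (log2FC -0.98), and Per2 fell by 1.03. Npas2 rose by 1.58 but did not pass with edgeR or DESeq2 (adjusted p = 0.153 and 0.164). Of 8 glucocorticoid target genes, 5 were lower and 2 higher. Tsc22d3 (GILZ) had 125.1 to 549.7 CPM (median 282) in PBS and 65.9 to 288 CPM (median 121.2) in HDM libraries (log2FC -1.07), and Fkbp5 did not pass (log2FC 0.45, adjusted p = 0.17). Among PBS libraries both genes followed the steps of the clock genes. In PBS replicates 7 to 10 Tsc22d3 had 422.9 to 549.7 CPM and Fkbp5 40.6 to 70.9 CPM. In PBS replicates 4 to 6 they had 125.1 to 158.2 CPM, within the HDM range, and 11.9 to 14.8 CPM. Of 6 genes of the aryl hydrocarbon receptor, a sensor of smoke and of other ring compounds, 2 were higher and 3 lower. With the level of Arntl less that of Dbp as a covariate, an alternative chosen after seeing the data, 2952 of the 2962 genes called by 2-fold still passed.

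Among genes outside predicted and antibody segment names whose groups did not overlap, the largest rises were those of Thbs4, Il17a, Jchain, H2-M2 and Slc6a12. Thbs4, thrombospondin 4 (chromosome 13 of mm10 from 92751590 to 92794818, minus strand), had 0 to 0.585 CPM (median 0.111) in PBS and 5.73 to 39.3 CPM (median 11.6) in HDM libraries (log2FC 6.98, standard error 0.92, adjusted p = 8.9e-07). H2-M2, a class I-like gene of the MHC region, went from a median of 1.31 CPM (0.502 to 3.82) in PBS to 124.9 CPM (50.3 to 312) in HDM (log2FC 6.35), and Slc6a12, a betaine and GABA transporter, from a median of 0.27 CPM (0 to 0.42) in PBS to 12.6 CPM (5.17 to 26.9) in HDM (log2FC 6.22). The largest falls were those of the glutamate receptor subunit Gria1, from a median of 14.5 CPM (9.04 to 18.5) in PBS to 0.825 CPM (0.28 to 1.86) in HDM (log2FC -3.95, standard error 0.26, adjusted p = 2.6e-11), the monocarboxylate transporter Slc5a12 (-3.81), the asialoglycoprotein receptor subunit Asgr1 (-3.51), the cystatin Cst8 (-3.49) and Esm1, an endothelial proteoglycan, from a median of 59.8 CPM (47.3 to 87.5) in PBS to 6.18 CPM (4.06 to 15.4) in HDM (log2FC -3.28). Since 9 libraries sufficed to enter the test, the libraries of 1 group alone could admit a gene. The PBS medians of Thbs4, Il17a and Slc6a12 and the HDM medians of Asgr1 and Cst8 lay under the 0.354 CPM of the filter. The size of these log2FC values therefore rests on few counts in the lower group. The smallest p-values among rises belonged to Slc6a20a, an imino acid transporter (2.29, standard error 0.09), and to the macrophage genes Mpeg1 (1.89, standard error 0.07) and Adgre1, which encodes F4/80 (1.83, standard error 0.07). Among falls they belonged to Bex4 (-2.25), the amino acid transporter Slc38a4 (-1.99) and the cation channel Trpc6 (-1.78).

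In the 3 comparisons that follow, group medians are CPM of the total counts, without TMM factors. Whether the response was particular to the parenchyma was tested against the airway of the same time and exposure, as an interaction over 40 libraries. The labels do not say which airway and parenchyma came from one mouse, although airway and parenchyma libraries of the same exposure carry neighbouring library codes. All were treated as independent, and a fit with sets of library codes as a block is given at the end. The log2FC was higher in the parenchyma for 2357 of 17361 genes (13.6%) and lower for 2756 (15.9%). The split between directions depended on the tool, since DESeq2 gave 3093 higher and 1922 lower, DESeq2 size factors in the limma fit 2514 and 1805, and no filter on low counts 2664 and 1365. Among immune lists, the effect differed for 12 of 15 complement genes (11 of them higher in the parenchyma, medians of 1.55 and 1.08). It differed for 6 of 12 mast cell and basophil, 5 of 16 lymphoid tissue and 5 of 15 monocyte chemokine and receptor genes. Fewer differed among alternatively activated macrophage (3 of 15), B cell and plasma cell (2 of 13), immunoglobulin constant (1 of 10) and MHC class II genes (1 of 12). Of lipid-laden macrophage genes, 1 of 12 differed. No member differed among 19 T cell, 14 neutrophil and 11 CXCR3 and interferon genes. Ighg1 (difference -0.53, standard error 1.03, adjusted p = 0.74), Il17a (log2FC 6.601 in parenchyma and 7.601 in airway, standard error of the difference 1.26, adjusted p = 0.59) and Mmp12 (-0.23, adjusted p = 0.73) did not pass, nor did Spi1 (adjusted p = 0.42), Jchain (1.21, adjusted p = 0.094) and Retnla (1.39, adjusted p = 0.086). Retnla passed with all 11-week groups in one fit, with the clock covariate and without PBS replicate 10 (adjusted p = 0.0108, 0.0381 and 0.0365). Without PBS replicate 7 the difference for Jchain was 1.45 and passed (adjusted p = 0.02).

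Structural lists did differ between the tissues. Type I alveolar genes fell more in the parenchyma for 9 of 10 (medians of -1.02 in the parenchyma and -0.11 in the airway) and endothelial genes for 5 of 13. The effect was also lower in the parenchyma for 8 of 11 type II markers (medians of 0.34 and 0.64) and for 6 of 9 alveolar fibroblast markers, of which 1 was higher (medians of -1.07 in both tissues). Pecam1 differed by -0.57 (standard error 0.19, adjusted p = 0.021), and Sftpc by -0.84 (adjusted p = 0.023). Pecam1 did not pass with no filter (adjusted p = 0.0525), and Sftpc did not pass with edgeR, DESeq2 or quality weights (adjusted p = 0.058, 0.0517 and 0.0619). The effect was higher in the parenchyma for 7 of 9 smooth muscle, 7 of 12 cardiac muscle, 6 of 6 club cell and 7 of 8 ciliated cell markers, whose median log2FC values in the airway were -1.36, -2.65, -1.69 and -1.02. Acta2 had medians of 301 CPM in PBS and 105.8 CPM in HDM airways and of 30.5 and 62.4 CPM in parenchyma, a difference of 2.42 (standard error 0.29, adjusted p = 1.1e-06). For Scgb1a1 the difference was 1.02 and for Foxj1 1.31. The smallest p-values went to Pcx (1.48), Serpinf1 (1.93) and Slc11a2 (1.10) among higher effects in the parenchyma, and to Ncaph (-1.04), the thrombin receptor F2r (-0.86) and Epb41l3 (-0.77) among lower ones. Muscle markers were lower in HDM than in PBS airways, mitochondrial genes took 4.32% to 9.06% of counts in PBS and 3.06% to 4.05% in HDM airways, and the part of either in these differences was not tested.

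The comparison with 3 weeks asked which genes responded differently after the shorter course. Over 42 libraries, the HDM effect was higher at 11 weeks for 4015 of 16955 genes (23.7%) and lower for 4426 (26.1%). The 3-week groups also differed in their clock genes: Dbp was at 108.01 to 161.6 CPM in PBS and 10.8 to 31.4 CPM in HDM libraries. Unprocessed pseudogenes took a median of 5.24% of counts in 3-week PBS libraries and 2.31% in 3-week HDM libraries, against 2.14% and 1.96% at 11 weeks. Mitochondrial genes took 6.18% to 8.16% of counts in 3-week PBS and 3.48% to 5.04% in 3-week HDM libraries. With the clock level as a covariate the counts were 3747 and 4210.

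Antibody genes had the larger effect at 11 weeks, for 6 of 9 immunoglobulin constant genes (medians of 6.40 at 11 weeks and 3.52 at 3 weeks) and 10 of 13 B cell and plasma cell genes. Ighg1 had a median of 598 CPM in 3-week and 9353 CPM in 11-week HDM libraries, against 67.8 CPM in 3-week and 7.32 CPM in 11-week PBS libraries, and a difference of effect of 6.52 (standard error 0.87, adjusted p = 8.1e-08). For Jchain the difference was 2.86 (adjusted p = 6.7e-06). The effect was smaller at 11 weeks for 15 of 16 cell cycle, 9 of 12 MHC class II, 9 of 15 monocyte chemokine, 9 of 11 CXCR3 and interferon, 8 of 15 alternatively activated macrophage and 9 of 10 arginine and nitric oxide genes. Ccl24 had a median of 19.7 CPM in 3-week HDM and 1.01 CPM in 11-week HDM libraries, with 0.999 and 1.01 CPM in the PBS groups (difference -3.30, standard error 0.97, adjusted p = 0.0048). Nos2 (-3.52), Cxcl9 (-2.83), Arg1 (-2.56), Chil3 (-1.80), Spi1 (-1.22) and Mki67 (-0.67) were all lower in effect at 11 weeks, and Cxcl9 did not pass with the clock covariate or the filter at 10 CPM (adjusted p = 0.0548 and 0.0511), nor Arg1 with that filter (0.0893) and Mki67 with all groups in one fit (0.0609). Il17a (1.69, standard error 0.86, adjusted p = 0.099) and Mmp12 (-0.08, standard error 0.39, adjusted p = 0.87) did not pass. Without PBS replicate 7 the difference for Il17a was 2.12 and passed (adjusted p = 0.0461).

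Pecam1 fell more at 11 weeks (-0.80, adjusted p = 2e-05), but its PBS medians were 787 CPM at 11 weeks and 299 CPM at 3 weeks, while the HDM medians were 332 and 254 CPM. Alveolar fibroblast genes fell less at 11 weeks for 5 of 9 (medians of -1.06 and -1.84), as did 4 of 10 type I markers. The smallest p-values among higher effects at 11 weeks were those of Fgfr2 (0.85), Gipc2 (0.83) and Pgrmc1 (0.96), and among lower effects those of Entpd1 (-1.43), Nfkb1 (-1.24) and 6530402F18Rik (-1.73). For Nfkb1, a subunit of the transcription factor NF-kB, the PBS medians were 56.2 CPM at 3 weeks and 113.8 CPM at 11 weeks, and the HDM medians 158.2 and 129.4 CPM. The part that sampling time or RNA quality had in the differences from 3 weeks was not tested beyond the clock covariate.

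**Figure D4:**
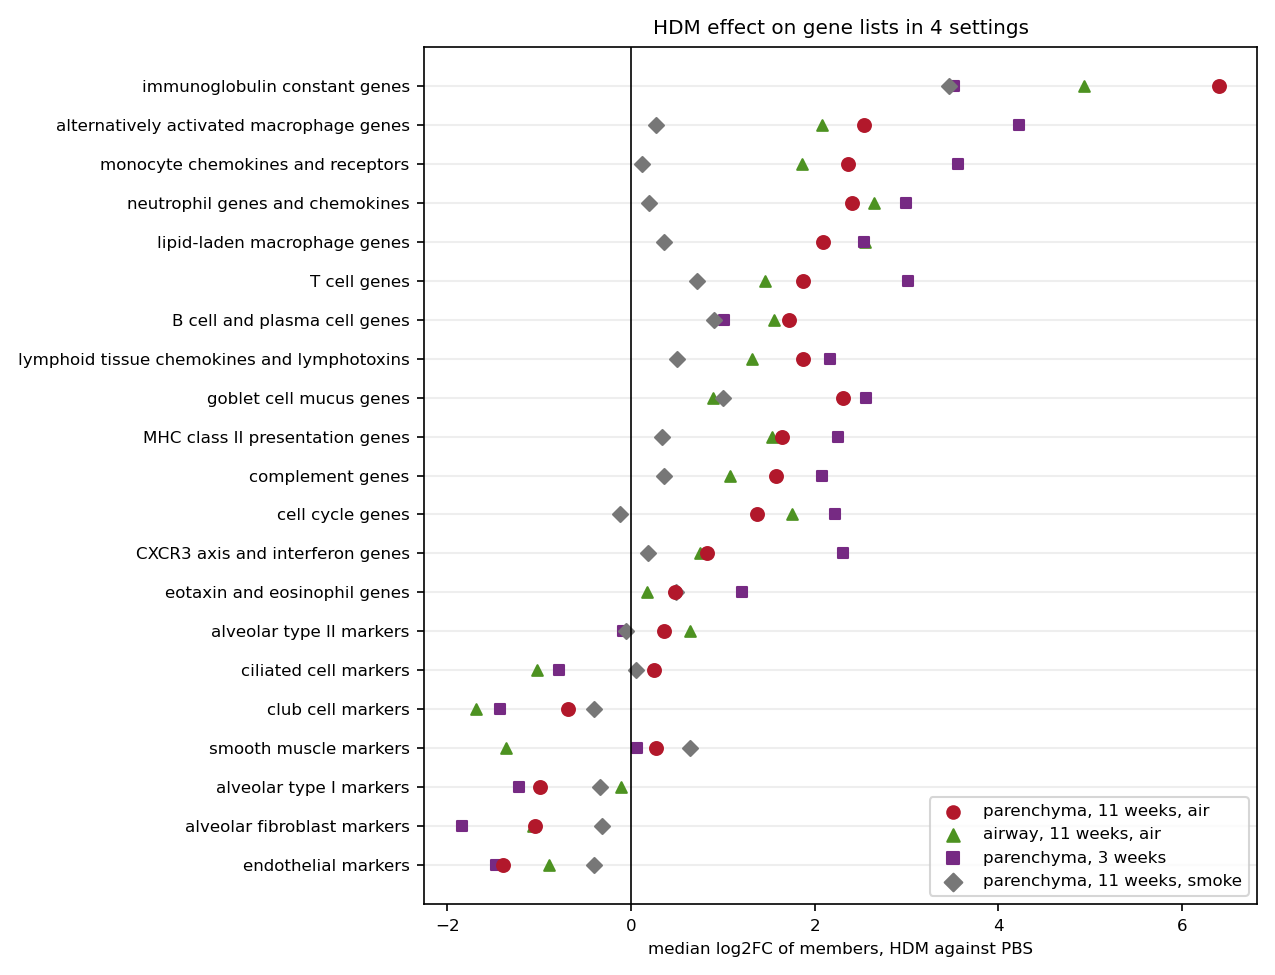
Each row is a gene list and each symbol the median log2FC of its tested members for HDM against PBS, in parenchyma at 11 weeks in air (red circles), airway at 11 weeks in air (green triangles), parenchyma at 3 weeks (purple squares) and parenchyma at 11 weeks with smoke (grey diamonds). Immunoglobulin constant genes had their highest median in parenchyma at 11 weeks in air, 6.41 over the 9 genes of the main test. Over the 10 genes tested together with the airway it was 5.83, against 4.93 in the airway. The medians under smoke lie between -0.12 and 0.36 for cell cycle, monocyte chemokine, neutrophil, macrophage, MHC class II, complement and CXCR3 lists.

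In mice that also breathed smoke, HDM added less on most of these lists. Over 40 libraries, the effect was higher in air for 3738 of 16821 genes (22.2%) and lower for 3466 (20.6%). It was higher in air for 16 of 16 cell cycle, 14 of 15 monocyte chemokine, 15 of 19 T cell, 12 of 15 lymphoid tissue, 12 of 15 complement, 11 of 12 MHC class II, 10 of 12 neutrophil and 10 of 12 lipid-laden macrophage genes. The levels differed in both the PBS and the HDM groups. Retnla had medians of 59.9 CPM in PBS and 919 CPM in HDM libraries in air, and of 544 and 652 CPM with smoke (difference of effect 3.86, standard error 0.51, adjusted p = 9.5e-08). C3 had medians of 295 and 1424 CPM in air and of 989 and 1055 CPM with smoke (2.12, adjusted p = 8.3e-15). Mmp12 had medians of 33.2 and 2235.5 CPM in air and of 305 and 1012 CPM with smoke (4.17, adjusted p = 1.2e-11), so it was still raised by HDM under smoke. In each of these genes the median of the smoke-exposed PBS group was above that of the air PBS group, and the median of the smoke-exposed HDM group was below that of the air HDM group. Spi1 (1.39), Clec7a (2.10), Cfb (3.17), Chil3 (1.53), Muc5ac (1.70) and Mki67 (1.53) differed in the same direction, and Muc5ac did not pass with all 11-week groups in one fit (adjusted p = 0.0528).

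Antibody and IL-17 genes had other patterns. The effect was higher in air for 6 of 9 immunoglobulin constant genes (medians of 6.40 in air and 3.46 with smoke). The same held for 9 of 13 B cell and plasma cell genes, and no member of either list was lower. Il17a did not pass, with HDM medians of 18.1 CPM in air and 15.4 CPM with smoke (standard error of the difference 0.93, adjusted p = 1). Jchain had medians of 5143 and 1725 CPM in the HDM groups and of 69.3 and 96.2 CPM in the PBS groups (2.34, adjusted p = 0.00013). Ighg1 differed with limma (3.49, adjusted p = 0.0021) but not with edgeR or DESeq2 (differences of 1.53 and 1.53, adjusted p = 0.203 and 0.185). Structural genes fell more in air: 12 of 13 endothelial, 9 of 9 alveolar fibroblast and 8 of 10 type I markers differed, for example Pecam1 (-0.82), Inmt (-1.55) and Hopx (-0.96). The smallest p-values among higher effects in air were those of Slc6a20a (2.66), the pantetheinase Vnn1 (4.37) and C3, and among lower effects those of Trpc6 (-1.35), Rbbp9 (-0.61) and Wscd1 (-1.37). Vnn1 had medians of 4.37 and 75.2 CPM in air and of 131.3 and 107.2 CPM with smoke. The 11-week differences from airway, 3 weeks and smoke share the same 20 libraries and are not independent of one another.

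**Figure D5:**
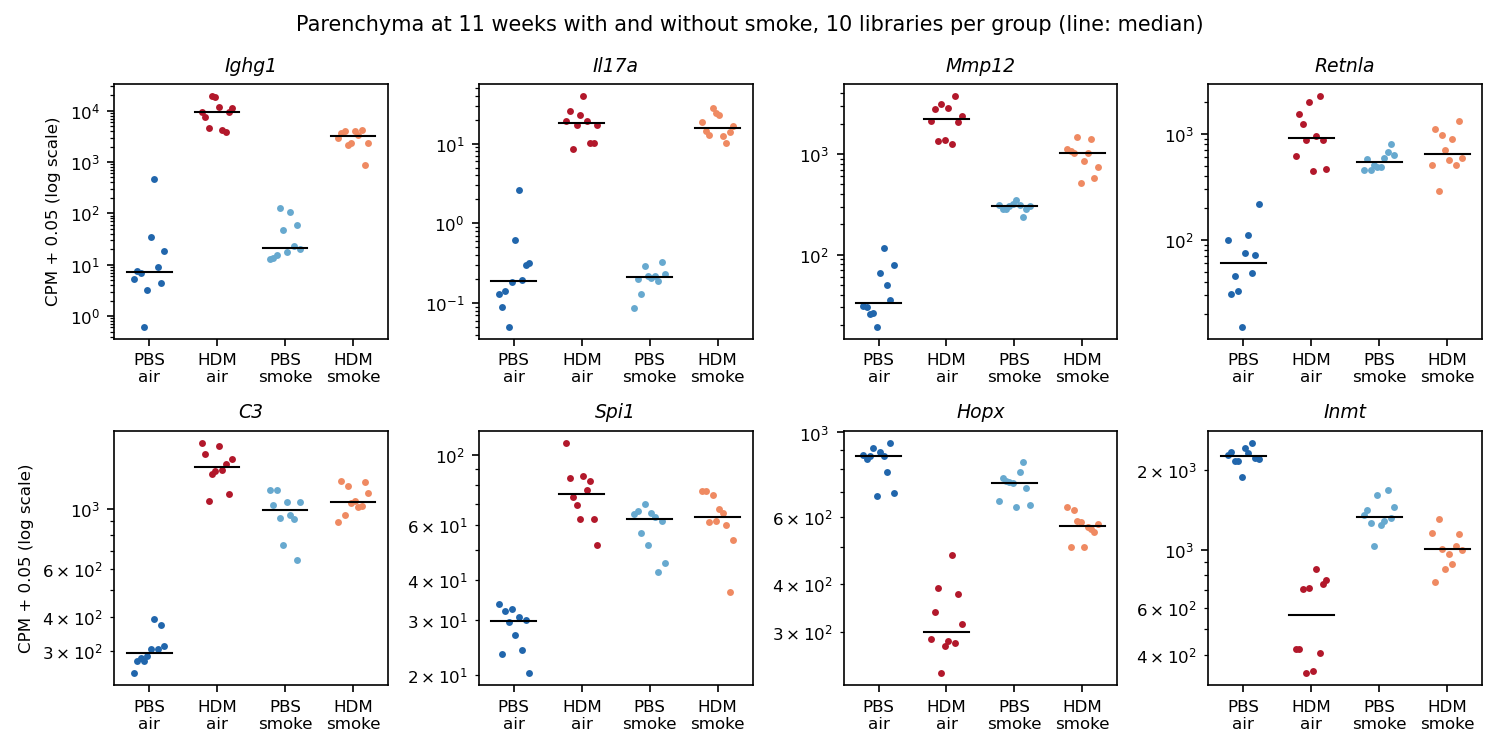
Each point is a library, with CPM plus 0.05 on a log scale for PBS (blue) and HDM (red) parenchyma at 11 weeks in air and for PBS (light blue) and HDM (orange) with smoke, and the median as a line. Mmp12, Retnla, C3 and Spi1 have higher medians in smoke-exposed PBS than in air PBS libraries and a shorter step from PBS to HDM under smoke, whereas Il17a has medians of 0.138 and 18.1 CPM in air and 0.162 and 15.4 CPM with smoke.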

How the data were processed

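Lung parenchyma and airway libraries had been sequenced as single reads by the study. The deposited table holds expected counts (estimated counts per gene, not scaled for depth or length) for 43346 gene identifiers, and 20.3% of its values above 0 are fractions. The submitters' processing notes name bcl2fastq 2.20.0.422, STAR 2.5.1b, RSEM 1.2.31 and kallisto 0.44.0 on mm10. Which quantifier made the table is not stated. Of the identifiers, 98% were found in GENCODE release 21 and 53.3% with the same version.

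Counts were rounded to whole numbers and scaled with TMM factors. Identifiers not found in release 21, with 0.117% of counts, stayed in the library totals and tests. A gene entered the test where 9 or more libraries reached the CPM that 10 counts make in a library of median depth. Tests used limma-voom (limma 3.58.1, edgeR 4.0.16, R 4.3.3), with Benjamini-Hochberg adjustment over all genes tested. All adjusted p-values in the text come from limma unless edgeR or DESeq2 is named. Differences between settings were interaction terms. A gene passed at an adjusted p-value under 0.05, and a further rule asked for 2-fold. On simulated counts for the 16337 genes of the main comparison, 88% of 2-fold and 99% of 4-fold changes were recovered. Only 100 genes were changed at each fold, far fewer than passed in the data, so recovery at the shares seen here was not tested. Total counts ranged from 22011675 to 33472028, and 10 counts made 0.354 CPM in a library of median depth.

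Groups came from the labels. Within each group all 45 pairs of libraries differed by more than counting noise (chi-square per gene of 11.7 or more), so none was counted as a repeat. Named genes were the 5 largest changes in each direction without overlap and with a mean of at least 1 CPM in the higher group, leaving out predicted genes and antibody or T cell receptor segments, the 3 smallest p-values in each direction of each comparison, and list members chosen by role. The members and the 42 gene lists were chosen with earlier results of these data known. The alternatives comprised DESeq2 1.42.0, the quasi-likelihood test of edgeR, DESeq2 size factors, 2 other filters, quality weights, wider fits, the library code as covariate, each library left out, and 3 chosen after seeing the data: the clock gene level as covariate, 3 libraries left out together, and sets of library codes as a block. Groups with dexamethasone were used only in the wider fits. A few members of the lists enter the counts but are not reported here by name.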

Additional observations from a re-analysis of the deposited data

Results flagged for a closer look

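Of 294 sets of 10 libraries examined for a single library with a wide gap to the others (log2 CPM of each named gene in each group), 19 had one, and chance alone gives about 1 in 20. In PBS replicate 7 the level was the highest of its group for 9 genes: Igkc (277 CPM, others 34.1 to 89.4), Jchain (255 CPM, others 23.6 to 80.1), Msr1 (20.4 CPM), Ctsk (152.1 CPM), Trem2 (17.3 CPM), Gpnmb (88.4 CPM), Spp1 (221 CPM), Ackr1 (1.43 CPM) and Adgre1 (34.8 CPM). In each of them it lay below every HDM library. What set this library apart was not tested.

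In HDM replicate 5 the airway genes Scgb3a1 (2987 CPM, others 170 to 524) and Foxj1 (161.1 CPM, others 45.8 to 76) were highest. In HDM replicate 7 Esm1 was highest (15.4 CPM) and Mpeg1 lowest (888 CPM). Upk3b was lowest in HDM replicate 2 (1.05 CPM) and in PBS replicate 10 (6.68 CPM), where Mcpt1 was highest (0.75 CPM). In PBS replicate 4 Asgr1 was highest (3.9 CPM), and in PBS replicate 5 Ccl21a (32.1 CPM) and Inmt (1761 CPM) were lowest.

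The effect of HDM differed from that in the airway, by the interaction term on the log2 scale, for Acta2 (2.42), Serpinf1 (1.93), Pcx (1.48), Foxj1 (1.31), Slc11a2 (1.1) and Scgb1a1 (1.02), which were higher in the parenchyma, and for Ncaph (-1.04), F2r (-0.86), Sftpc (-0.84), Epb41l3 (-0.77) and Pecam1 (-0.57), which were lower. Sftpc did not pass with edgeR, DESeq2 or quality weights (adjusted p = 0.058, 0.0517 and 0.0619), nor Pecam1 with no filter (adjusted p = 0.0525).

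It differed from that at 3 weeks for Ighg1 (6.52), Jchain (2.86), Pgrmc1 (0.96), Fgfr2 (0.85) and Gipc2 (0.83), higher at 11 weeks, and for Nos2 (-3.52), Ccl24 (-3.3), Cxcl9 (-2.83), Arg1 (-2.56), Chil3 (-1.8), 6530402F18Rik (-1.73), Entpd1 (-1.43), Nfkb1 (-1.24), Spi1 (-1.22), Pecam1 (-0.8) and Mki67 (-0.67), lower at 11 weeks. Cxcl9, Arg1 and Mki67 each lost the call under an alternative given in the comparison with 3 weeks.

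It differed from that under smoke for Vnn1 (4.37), Mmp12 (4.17), Retnla (3.86), Ighg1 (3.49), Cfb (3.17), Slc6a20a (2.66), Jchain (2.34), C3 (2.12), Clec7a (2.1), Muc5ac (1.7), Chil3 (1.53), Mki67 (1.53) and Spi1 (1.39), higher in air, and for Inmt (-1.55), Wscd1 (-1.37), Trpc6 (-1.35), Hopx (-0.96), Pecam1 (-0.82) and Rbbp9 (-0.61), lower in air. Ighg1 did not pass with edgeR or DESeq2 (1.53 in both, adjusted p = 0.203 and 0.185), nor Muc5ac with all 11-week groups in one fit (adjusted p = 0.0528).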

How the results depend on the processing

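Of 470 counts of genes or list members recomputed under the alternatives, 457 stayed within 1.5 times the value reported. With a filter at 10 CPM the 2-fold counts were 887 up and 553 down, because only 1449 of the 2962 genes called were then tested, and all 1449 passed. Under that filter the differences from the airway numbered 1433 higher and 1518 lower, and 2910 genes were lower against 3 weeks. Fewer genes were lower against the airway with DESeq2 size factors (1805) and with no filter (1365), and the cause was not tested. With edgeR 2 of 12 lipid-laden macrophage genes down became 1, 2 eotaxin and eosinophil genes down became 0, 1 clock gene up became 0, 0 skeletal muscle markers up became 1, 2 adipose markers down became 1 and 0 mesothelial markers up became 1, and the cause was not tested. Of the 2962 genes, 7 changed sign with edgeR, 1 with DESeq2, and none when any 1 library was left out.

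Among single genes, 6152 of 6246 recomputed values kept their direction and their side of the threshold, 52 lost it, 17 gained it and 25 changed sign, all 25 for genes that did not pass with the test reported. Without the 3 libraries that stood apart Nr1d1 was at 0.18, and with the clock covariate it was at 0.80 and passed (adjusted p = 0.00643). Dbp was at 0.15 with that covariate, which is itself built from Dbp, so the value is no test of Dbp. The difference from 3 weeks for Mmp12 was 0.003 with the filter at 10 CPM, and the difference from smoke for Il17a was 0.005 with that filter and 0.001 with all 11-week groups in the fit. Leaving out 1 library gave -0.012 to 0.051 for Mtf1, -0.48 to 0.12 for Nr1d1, -0.988 to 0.049 for Ighg1 against the airway, -0.19 to 0.11 for Mmp12 against 3 weeks and -0.38 to 0.40 for Il17a against smoke. Fkbp5 (0.87, adjusted p = 1.42e-06) and Hlx (-0.49, adjusted p = 0.000326) passed with the clock covariate. Hlx also passed with the library code as covariate and without PBS replicate 10 (adjusted p = 0.0191 and 0.0493), and Fkbp5 without PBS replicate 9 (0.0363). Npas2 did not pass without the 3 libraries (0.0603), Pdpn with no filter (0.0707) and Car4 without the 3 libraries, with no filter or with the clock covariate (0.183, 0.0515 and 0.0933). Further gains and losses of a call by named genes stand beside them in the comparisons.

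The labels give no replicate numbers, but the library codes run in sets of 20 with 1 library of each 11-week group. An HDM and a PBS library of the same set deviated together from their group means in some sets only. Correlations over genes were -0.29 to 0.38, and over 0.1 in 5 of 10 sets. Of 20 libraries, 7 correlated best with their own set, which is more than random matching to 10 sets gives on average. Whether libraries of a set belong together is not stated in the labels, and the main tests did not pair them. With these sets as a replicate block, chosen after seeing the data, 1948 genes were up and 1011 down by 2-fold, and the differences numbered 2893 higher and 3413 lower against the airway, 4376 and 4519 against 3 weeks, and 4145 and 3655 against smoke. Under the block Hlx (-0.32, adjusted p = 0.0258) and the difference from 3 weeks for Il17a (1.365, adjusted p = 0.0423) passed, and no other named gene gained or lost its call. The genes Il5, Il13, Il9 and Il25 were under the filter on low counts at these depths.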
